A study of Mus musculus with 48 samples.

Results

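The genes described here are 10 genes of the circadian clock: Arntl (also named Bmal1), Npas2, Per1, Per2, Per3, Cry1, Nr1d1, Dbp, Hlf and Ciart. They were taken by Ensembl identifier, 10 of the 56748 identifiers counted in each of 48 bulk RNA sequencing libraries from the liver and 2 fat depots of mice, the brown fat (BAT) and the white fat around the epididymis (eWAT). The mice were male littermates, either hepAGT+/+ (written WT below) or hepAGT-/- (written KO), the second carrying a deletion of angiotensinogen, Agt, in hepatocytes. All of them, controls included, were fed for 12 weeks on a Western diet (21% of it milk fat, with cholesterol at 0.2%) under 14 h of light and 10 h of darkness. Cages stood at 20 to 22 °C, room temperature (RT), or at 30 °C, which is thermoneutral for mice (TN), and each of the 12 groups of tissue, genotype and housing held 4 libraries labelled as biological replicates. The hour at which tissue was taken, the strain, the age and the driver of the deletion are not given in the sources used here.

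The clock is a loop of transcription that runs in nearly every cell of the body with a period close to that of a day. The proteins of Arntl and of Clock or its relative Npas2 pair up and bind E-box sequences, which turns on the Per and Cry genes, Nr1d1, Ciart and Dbp; the PER, CRY and CIART proteins then hold that pair back, and NR1D1 (REV-ERB alpha) represses Arntl and Npas2 through RORE sequences. The level of each of these RNAs in a tissue depends on the hour at which it is taken. DBP and HLF are output factors that bind D-box sequences, and in liver they are known for driving daily rhythms of metabolic genes.

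Promoter sequences of 4 members are shown because they hold the motifs through which this loop is known to act. RefSeq promoters (GRCm38.p6, 250 bases before the start site to 50 after it) were searched on both strands for the E-box CACGTG, the D-boxes TTATGTAA and TTACGTAA, and the RORE TAGGTCA. Of 32851 such windows of 300 bases, 7.15% held the E-box, 1.06% a D-box and 2.61% the RORE. Ciart held 3 E-boxes, Per1 and Cry1 each held 1, and Per3 held 2 D-boxes. The RORE was found once, in the second of the 2 Arntl windows, 30 bases after the start site. No match was found in the windows of Npas2, Nr1d1, Dbp and Hlf, and Per2 was named only. The 250 bases before the start site follow, 5′ to 3′ on the gene's strand, with the motif in capitals. They lie at chr3:95882229-95882478 (minus strand, Ciart), chr11:69098699-69098948 (plus strand, the first of 2 Per1 windows), chr10:85185055-85185304 (minus strand, Cry1) and chr4:151044666-151044915 (minus strand, Per3).
Ciart: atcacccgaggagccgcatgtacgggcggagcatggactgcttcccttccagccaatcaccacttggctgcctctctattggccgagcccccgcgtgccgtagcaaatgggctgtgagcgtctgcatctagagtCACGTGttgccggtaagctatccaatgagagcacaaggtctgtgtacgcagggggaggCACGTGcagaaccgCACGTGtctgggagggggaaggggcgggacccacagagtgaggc
Per1: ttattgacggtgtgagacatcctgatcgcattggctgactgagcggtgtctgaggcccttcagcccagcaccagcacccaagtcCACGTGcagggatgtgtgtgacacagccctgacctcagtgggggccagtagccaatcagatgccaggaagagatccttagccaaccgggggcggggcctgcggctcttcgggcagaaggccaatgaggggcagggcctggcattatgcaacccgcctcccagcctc
Cry1: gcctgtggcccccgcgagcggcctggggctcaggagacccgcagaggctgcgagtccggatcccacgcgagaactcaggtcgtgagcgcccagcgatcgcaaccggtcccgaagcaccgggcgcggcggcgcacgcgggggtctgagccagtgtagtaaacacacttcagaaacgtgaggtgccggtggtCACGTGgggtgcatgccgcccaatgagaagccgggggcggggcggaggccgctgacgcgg
Per3: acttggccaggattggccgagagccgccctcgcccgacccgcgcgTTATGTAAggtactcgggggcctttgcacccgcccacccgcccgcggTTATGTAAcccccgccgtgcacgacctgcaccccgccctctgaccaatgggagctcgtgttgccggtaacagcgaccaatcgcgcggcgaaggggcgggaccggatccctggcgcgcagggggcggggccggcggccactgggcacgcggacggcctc

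Depth per library, in mega-counts, was 23.7 to 36.5 in liver, 25.3 to 39.4 in BAT and 28.7 to 43.7 in eWAT. Levels below are counts per mega-count of the library (CPM), with library sizes scaled by edgeR (TMM) over all 48 libraries, given as mean ± SD over 4 libraries unless stated. At RT liver Agt was 424 ± 88.4 CPM in WT and fell to 194 ± 31.6 CPM in KO, and it was 482 ± 99.3 against 193 ± 40.7 CPM at TN. In edgeR's quasi-likelihood test this was a log2 difference of -1.14 at RT (Benjamini-Hochberg adjusted p = 0.0096) and -1.29 at TN (adjusted p = 0.00113), and KO lay below WT in all libraries at both temperatures, a separation that 5.61% (RT) and 13% (TN) of genes showed in either direction. Each tissue expressed its own markers: hepatocyte genes summed to 48800 to 86400 CPM in liver, brown adipocyte genes to 3220 to 13000 CPM in BAT, and adipocyte genes to 18700 to 31400 CPM in eWAT. Marker sums, here and below, used library totals without the TMM scaling. In bulk tissue, fewer cells of a type and less RNA per cell cannot be told apart. Exons of Nr1d1 share 263 of 3077 bases with Thra on the opposite strand, and those of Dbp share 539 of 2993 with Sphk2, and the strand setting of the counting is not given in the sources used here.

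All 10 genes passed the filter on low counts in every tissue. Over the genotype and temperature comparisons, 5 calls were made at an adjusted p under 0.05 (edgeR): Cry1 and Hlf were lower in KO than in WT liver at TN, Per1 was higher and Ciart lower at TN than at RT in WT BAT, and Ciart was lower at TN in KO BAT. In liver at TN, 3.18% of the 17594 genes tested were called (1.85% lower in KO), against 2 of 10 clock genes, both lower. In BAT, 32.5% of 18032 genes were called for temperature in WT (16.7% lower at TN) and 15.2% in KO (8.52% lower), against 2 and 1 of 10 clock genes, so the share of clock genes called there was not above that of all genes. Leaving out 1 library moved the count of all genes called in liver at TN from 560 to between 178 and 497. The hour of collection is not given for any library, so its part in the 5 calls was not tested.

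**Figure D1:**
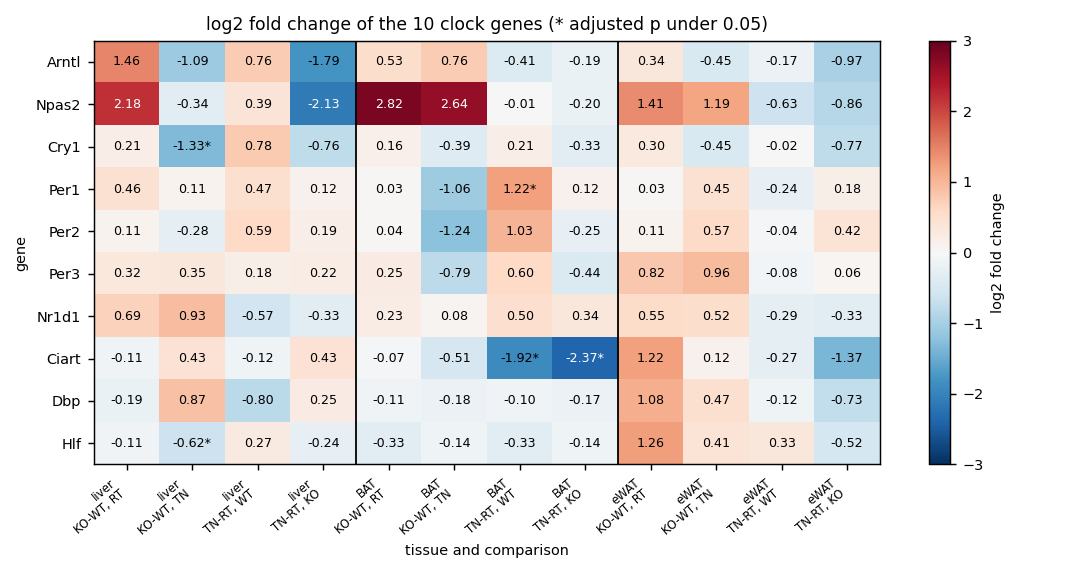
Log2 fold change of the 10 clock genes (rows) in the genotype (KO-WT) and temperature (TN-RT) comparisons of each tissue (columns), from edgeR, with an asterisk for an adjusted p under 0.05. The asterisks stand at Cry1 and Hlf in liver at TN (-1.33 and -0.62), Per1 and Ciart in WT BAT (1.22 and -1.92) and Ciart in KO BAT (-2.37); many larger numbers, such as 2.82 for Npas2 in BAT, carry none.

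None of the 10 genes was called in the other 3 liver comparisons of 2 groups (0.0853% of genes called for genotype at RT, 0.0227% for temperature in WT, 0.114% for temperature in KO), in BAT for genotype (0.0887% at RT, 0% at TN) or in eWAT (4.34% for genotype at RT, 0.586% at TN, 0% for temperature in WT, 1.74% in KO). These shares rest on few libraries: without WT replicate 12 the 16 genes called for genotype at RT in BAT became 1979, and without KO replicate 5 or WT replicate 6 or 7 the 111 called at TN in eWAT became 1. At an unadjusted p under 0.05 these comparisons held 1, 1 and 2 members in liver, 0 and 1 in BAT, and 2, 2, 0 and 1 in eWAT. A p that low was also found for 1799, 1276 and 1849 of 17594 genes in liver and for 3507 and 945 of 18032 in BAT. In eWAT it was found for 3358, 2603, 1324 and 3311 of 18933 genes. The interaction of genotype and temperature called no member and no gene in any tissue (0%), with 3, 1 and 0 members under an unadjusted 0.05 in liver, BAT and eWAT. Of all genes tested, 1290, 1832 and 1439 were under it in the same order. DESeq2 called no member in these comparisons except Hlf for genotype at RT in eWAT and Cry1 for the interaction in liver.

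Cry1, whose protein is a strong repressor of the ARNTL pair, had the lowest adjusted p of the 10 genes for genotype. In WT liver at TN its level was 19.7, 21.5, 20.8 and 9.83 CPM in replicates 1, 6, 7 and 24. In KO liver at TN it was 6.25, 5.99, 7.92 and 7.70 CPM in replicates 2, 4, 5 and 22. All 4 KO libraries lay below all 4 WT libraries, although WT replicate 24 stood much closer to KO than the other 3 did. The means were 18.0 ± 5.47 and 6.97 ± 0.984 CPM, a log2 difference of -1.33 ± 0.24 (SE, edgeR adjusted p = 0.00531). At RT the groups overlapped, with 10.2 ± 2.15 CPM for WT and 11.9 ± 2.07 CPM for KO.

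Seen by temperature, Cry1 in liver moved opposite ways in the 2 genotypes, but neither change was called. In WT its log2 change from RT to TN was 0.78 ± 0.24 (edgeR adjusted p = 0.400), and in KO it was -0.76 ± 0.24 (adjusted p = 0.191), where the groups did not overlap (as for 7.29% of genes). The interaction was -1.54 ± 0.34 (edgeR adjusted p = 0.399), while DESeq2 gave -1.52 with an adjusted p of 0.0354. In BAT and eWAT the genotype difference of Cry1 at TN was -0.39 and -0.45 and was not called. The difference between tissues was itself not called (0.98 for BAT and 0.92 for eWAT relative to liver, edgeR adjusted p = 0.248, with 0.904% of 21910 genes called).

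Hlf, an output factor of the D-box family, was the other gene called in liver at TN. It was 115, 101, 97.8 and 77.2 CPM in WT replicates 1, 6, 7 and 24, and 61.2, 53.6, 64.7 and 69.1 CPM in KO replicates 2, 4, 5 and 22. The groups did not overlap, and WT replicate 24 was again the WT library nearest to KO. The log2 difference was -0.62 ± 0.14 (edgeR adjusted p = 0.0208), from 97.6 ± 15.5 to 62.1 ± 6.57 CPM. This call was lost when KO replicate 4 (adjusted p = 0.0837) or WT replicate 1 (0.0725), 6 (0.0616) or 7 (0.0501) was left out, whereas that of Cry1 held without any single library. Hepatocyte markers were detected in every liver library (6 of 6 genes), with sums of 63900 to 83700 CPM in WT and 68200 to 86400 CPM in KO at TN.

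Other members in liver at TN differed without a call. Dbp, the relative of Hlf, had the opposite sign, with 95.0, 97.0, 74.5 and 176 CPM in WT replicates 1, 6, 7 and 24 and 264, 178, 181 and 164 CPM in KO replicates 2, 4, 5 and 22. Only WT replicate 24 fell within the KO range (log2 difference 0.87 ± 0.37, edgeR adjusted p = 0.248). Arntl was 3.93, 4.63, 7.04 and 4.81 CPM in WT and 2.12, 2.27, 2.36 and 2.64 CPM in KO replicates 2, 4, 5 and 22. These groups did not overlap, yet the log2 difference of -1.09 ± 0.60 was not called (adjusted p = 0.372). Of all genes tested in liver at TN, 13% had groups that did not overlap, against Arntl, Cry1 and Hlf among the 10.

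The activators Arntl and Npas2 varied widely between libraries of one group. In liver at RT, Arntl was 12.7, 15.4, 0.983 and 3.69 CPM in KO replicates 9, 10, 16 and 19, and 2.79, 5.28, 2.62 and 1.04 CPM in WT replicates 11, 12, 15 and 18. The KO group thus held both the highest and the lowest library. The log2 differences of Arntl were 1.46 ± 0.60 for genotype at RT (edgeR adjusted p = 0.388) and -1.79 ± 0.60 for temperature in KO (adjusted p = 0.252).

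In BAT, Arntl was 15.4, 0.788, 0.426 and 2.80 CPM in WT replicates 12, 15, 17 and 18 at RT and 11.9, 13.0, 2.10 and 0.841 CPM in KO replicates 9, 10, 14 and 19. At TN it was 0.854, 1.83, 1.39 and 10.7 CPM in WT replicates 1, 6, 7 and 24 and 7.21, 14.2, 2.27 and 1.33 CPM in KO replicates 2, 3, 4 and 5. Every BAT group therefore held at least 1 library above 10 CPM and at least 1 below 3 CPM, and the groups overlapped throughout. In eWAT the same gene ran from 2.05 CPM (replicate 16) to 20.8 CPM (replicate 9) within KO at RT, and from 1.59 to 15.1 CPM within KO at TN.

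Npas2, which can take the place of Clock beside ARNTL, was near the limit of detection. It had 0 counts in 4 liver and 3 BAT libraries, which allows up to 0.0762 to 0.127 CPM there (3 counts of the library total without TMM scaling, counting error only). In liver at RT it was 2.23 and 2.83 CPM in KO replicates 9 and 10, and 0 CPM in KO replicates 16 and 19, the same split as for Arntl. In BAT its genotype difference was 2.82 ± 1.36 at RT and 2.64 ± 1.34 at TN on the log2 scale, with edgeR adjusted p-values of 0.263 and 0.970.

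**Figure D2:**
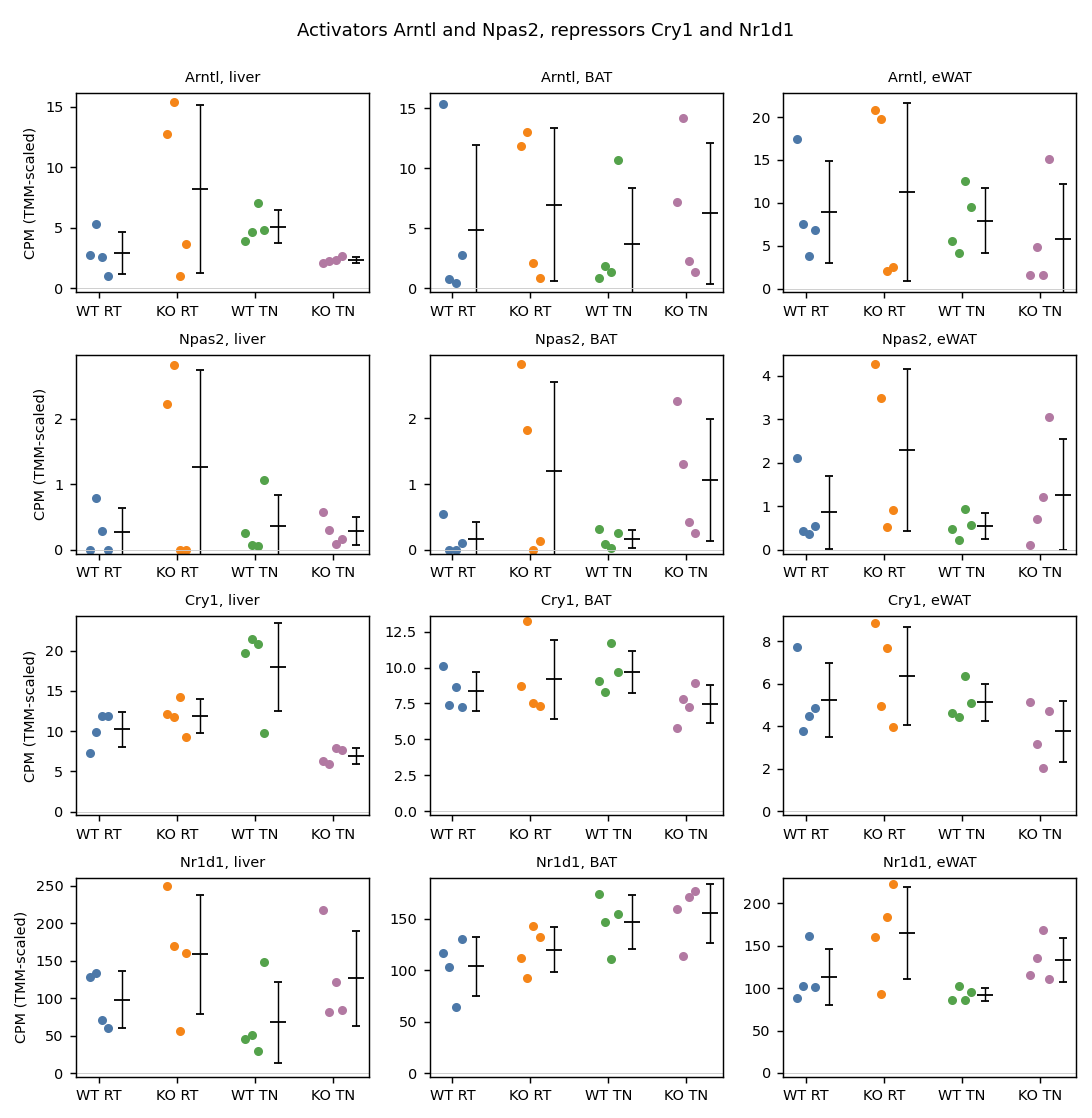
Level of Arntl, Npas2, Cry1 and Nr1d1 (rows) in liver, BAT and eWAT (columns), in TMM-scaled CPM on a linear axis, with 1 point per library and bars for mean ± SD of 4 libraries (bars that would pass below 0 end at the axis). In liver the 4 KO points of Cry1 at TN (5.99 to 7.92 CPM) lie below all WT points, while Arntl in KO at RT splits into 2 libraries above 12 CPM and 2 below 4 CPM.

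Among the Period genes, which encode partners of CRY in repression, Per1 was called in BAT. It was 23.8, 40.5, 28.6 and 31.5 CPM in WT replicates 12, 15, 17 and 18 at RT and 97.7, 70.1, 80.2 and 43.0 CPM in WT replicates 1, 6, 7 and 24 at TN. All 4 TN libraries lay above all 4 RT libraries, as did those of 26.9% of all genes in either direction. The log2 change was 1.22 ± 0.29 (edgeR adjusted p = 0.00483), where the median of all genes moved by 0.112, and the call held without any single library. In KO the levels were 33.0, 18.4, 44.9 and 29.7 CPM at RT (replicates 9, 10, 14 and 19) and 45.7, 23.4, 42.7 and 27.9 CPM at TN (replicates 2, 3, 4 and 5), a log2 change of 0.12. The interaction, -1.09 ± 0.41, was not called (adjusted p = 0.470), and neither was the genotype difference at TN, -1.06 ± 0.29 (adjusted p = 0.633).

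Per2 and Per3 were not called in any comparison of groups. In BAT, Per2 was 19.0 ± 10.7 CPM in WT at RT and 39.1 ± 12.5 CPM at TN, a log2 change of 1.03 ± 0.65 (edgeR adjusted p = 0.243). In liver its WT libraries did not overlap by temperature, at 40.3 to 69.9 CPM at RT and 71.0 to 105 CPM at TN, as for 3.98% of genes, with a log2 change of 0.59 ± 0.51 (adjusted p = 0.894). In eWAT at TN, Per3 was 26.4, 35.7, 22.8 and 19.8 CPM in WT replicates 6, 7, 8 and 23 and 50.8, 41.3, 73.4 and 38.3 CPM in KO replicates 3, 4, 5 and 21. The groups stood apart, as did those of 9.46% of all genes there, and the log2 difference was 0.96 ± 0.44 (adjusted p = 0.358).

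Ciart, also known as CHRONO, encodes a repressor of the ARNTL pair, and it was lower at TN in BAT of both genotypes. In WT it was 1.63, 10.9, 13.4 and 5.10 CPM at RT (replicates 12, 15, 17 and 18) and 2.87, 2.23, 1.56 and 1.62 CPM at TN (replicates 1, 6, 7 and 24). In KO it was 3.29, 2.46, 13.9 and 9.77 CPM at RT (replicates 9, 10, 14 and 19) and 0.990, 0.743, 2.57 and 1.48 CPM at TN (replicates 2, 3, 4 and 5). No TN library exceeded 2.87 CPM, and the groups overlapped through the low RT libraries, replicate 12 in WT and replicate 10 in KO.

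The log2 change of Ciart was -1.92 ± 0.63 in WT (edgeR adjusted p = 0.0298) and -2.37 ± 0.64 in KO (adjusted p = 0.0206). The WT call was lost without RT replicate 15 or 17 or TN replicate 6, 7 or 24 (adjusted p 0.0687 to 0.0972), and the KO call without RT replicate 14 or 19 or TN replicate 2, 3 or 5 (0.0532 to 0.0688). Both were lost with no filter on low counts, at 0.0741 and 0.0567. No difference between tissues was called for the change of Ciart with temperature (edgeR adjusted p = 0.513 in WT and 0.348 in KO, with 15% and 4.06% of genes called).

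Marker sums of cell types varied between the BAT libraries, and those of muscle and hepatocytes overlapped between RT and TN. The sum of 5 brown adipocyte markers was 7640 to 13000 CPM at RT and 3220 to 7070 CPM at TN. The sum of 7 skeletal muscle markers was 1.42 to 3270 CPM at RT and 1.32 to 6410 CPM at TN, and that of 6 hepatocyte markers 3.8 to 612 CPM and 21 to 2350 CPM, with no brown adipocyte, muscle or hepatocyte marker at 0 in a whole group. The part of these cell types in the changes of Per1 and Ciart was not tested.

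Nr1d1, the nuclear receptor that represses Arntl, was not called over all libraries. In BAT of WT it was 103 ± 28.3 CPM at RT and 147 ± 26.5 CPM at TN (log2 change 0.50 ± 0.21, edgeR adjusted p = 0.0745, and 0.62 with 0.046 without TN replicate 7). In eWAT at TN it was 86.4, 102, 86.5 and 94.9 CPM in WT replicates 6, 7, 8 and 23 and 116, 136, 168 and 111 CPM in KO replicates 3, 4, 5 and 21. KO was above WT in all libraries, a separation that 9.46% of all genes showed there in either direction. The log2 difference was 0.52 ± 0.23 (edgeR adjusted p = 0.326). For genotype at RT in eWAT it was called without KO replicate 10 (0.78, edgeR adjusted p = 0.0427).

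**Figure D3:**
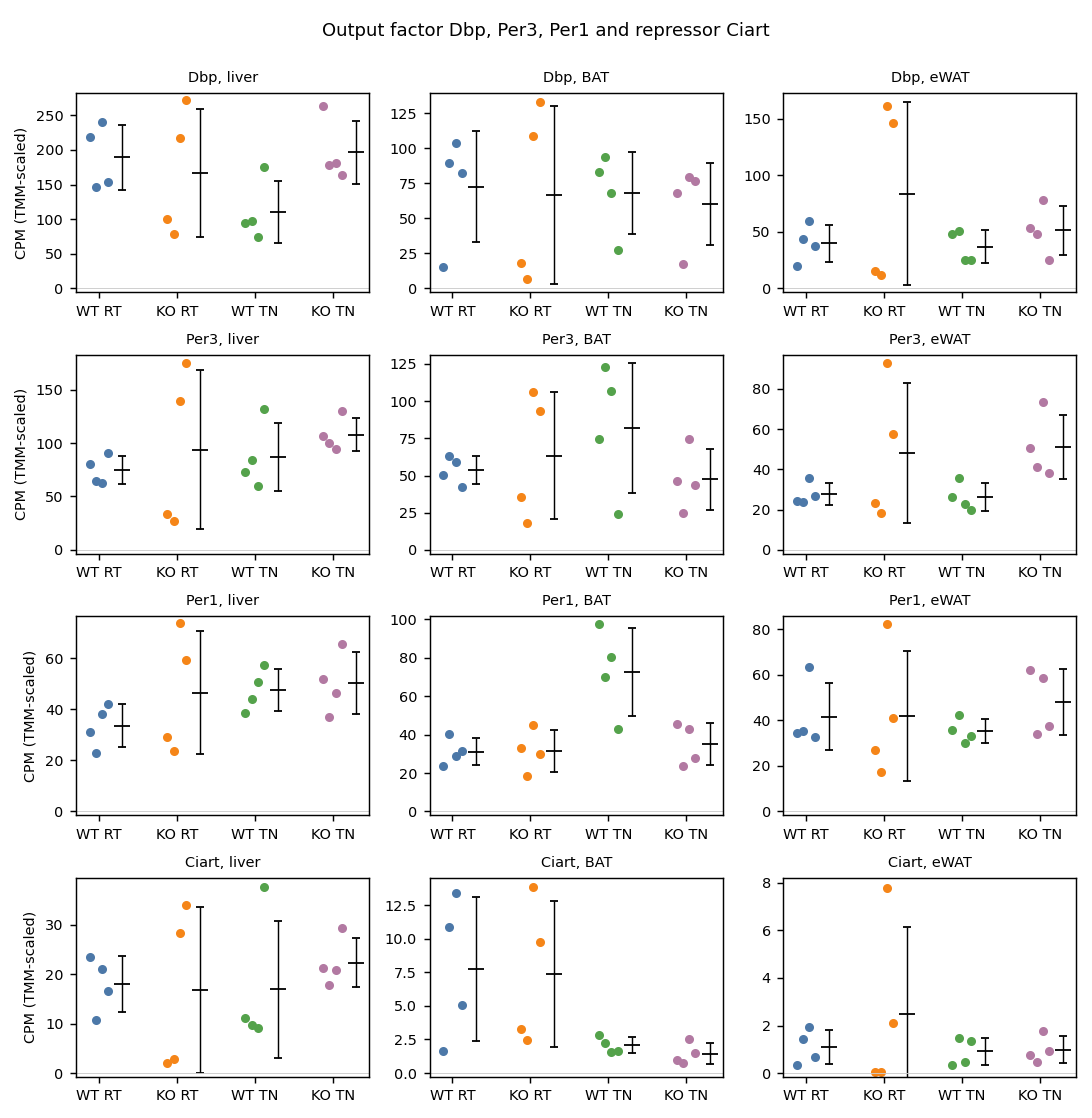
Level of Dbp, Per3, Per1 and Ciart (rows) in liver, BAT and eWAT (columns), in TMM-scaled CPM on a linear axis, with 1 point per library and bars for mean ± SD of 4 libraries (bars that would pass below 0 end at the axis). In BAT all WT points of Per1 at TN (43.0 to 97.7 CPM) lie above those at RT, and all Ciart points at TN lie under 3 CPM; Dbp in eWAT of KO at RT shows 2 points near 150 CPM and 2 below 16 CPM.

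In eWAT at RT all 10 clock genes had a positive log2 difference of KO over WT, from 0.03 for Per1 to 1.41 for Npas2, with a median of 0.68 where that of all genes was -0.002. None was called. Dbp had 15.4, 12.0, 161 and 146 CPM in KO replicates 9, 10, 16 and 19 and 19.8, 43.4, 59.5 and 37.5 CPM in WT replicates 12, 13, 15 and 18. Its KO libraries lay on both sides of the whole WT group, 2 below it and 2 above it. So did those of Arntl, in the opposite order. Arntl was 20.8, 19.8, 2.05 and 2.54 CPM in the same KO replicates and 17.5, 7.51, 3.77 and 6.88 CPM in the same WT replicates. The log2 differences compare group means, so their shared sign does not show that the 10 genes rose together in the KO libraries.

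Hlf came nearest to a call in that comparison. Its values were 7.13, 7.29, 27.9 and 16.5 CPM in KO and 3.90, 6.89, 7.82 and 6.27 CPM in WT, in the same order of replicates (log2 difference 1.26 ± 0.41, edgeR adjusted p = 0.0952). It was called by DESeq2 (1.28, adjusted p = 0.0126) and without KO replicate 9 (1.51, edgeR adjusted p = 0.0476). Among these eWAT libraries, the sum of 6 hepatocyte markers reached 4310 CPM in KO replicate 16, and 7 epididymis markers summed to 1160 CPM in WT replicate 18 and to at most 20.1 CPM in KO at RT. Their part in the differences was not tested. The genotype difference of Hlf at RT, -0.11 in liver and -0.33 in BAT, did not differ by call from that in eWAT (edgeR adjusted p = 0.109, 2.06% of genes called).

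The rest of the pathway was followed in 18 other clock genes, 12 clock output genes and 10 glucocorticoid-responsive genes. In liver none was called in any comparison (edgeR), with at most 5 of the 17 other clock genes tested, 2 output genes and 3 glucocorticoid-responsive genes at an unadjusted p under 0.05. The 5 and the 2 were for genotype at TN, where 3099 of all 17594 genes had a p that low. The 3 were for temperature in WT, where 1276 genes did. DESeq2 called Bhlhe41 higher and Tsc22d3 lower in KO liver at TN, and Elovl3 lower and Zbtb16 higher at TN in KO liver. In WT BAT, 1 of the 18 other clock genes fell with TN and 1 rose, where 16.7% of all genes were called lower and 15.9% higher. Bhlhe40, a repressor that competes for E-boxes, fell from 206 ± 104 to 63.5 ± 22.0 CPM (log2 -1.70, edgeR adjusted p = 0.00976). Timeless rose from 5.99 ± 2.81 to 14.1 ± 6.88 CPM (log2 1.22, adjusted p = 0.0348), a call lost with no filter on low counts (0.0691), with only the 8 libraries compared (0.0674) and without any of 6 single libraries (0.0779 to 0.102). Of the output genes, 2 of 12 fell in WT BAT, a share no higher than the 16.7% of all genes. They were Nampt, the enzyme of NAD salvage (379 ± 79.3 to 233 ± 32.0 CPM, log2 -0.71, adjusted p = 0.00759), and Elovl3, a fatty acid elongase that is also 1 of the 5 brown adipocyte markers (288 ± 77.0 to 1.95 ± 1.96 CPM, log2 -7.22, adjusted p = 0.000196). In KO BAT, Elovl3 fell as well (431 ± 178 to 1.08 ± 0.955 CPM, log2 -8.66, adjusted p = 0.000215), and Alas1, the first enzyme of heme synthesis, rose (244 ± 41.9 to 451 ± 155 CPM, log2 0.86, adjusted p = 0.0282), beside 8.52% of all genes called lower and 6.64% higher. The call of Alas1 was lost without any of 5 single libraries (edgeR adjusted p 0.07 to 0.097).

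Of the 10 glucocorticoid-responsive genes, several of which follow the daily rhythm of corticosterone, 4 rose with TN in WT BAT and none fell, where 15.9% of all genes were called higher. The list was chosen with earlier results of these data known, so its shares are a description and not a test. Fkbp5, a chaperone partner of the glucocorticoid receptor, went from 4.80 ± 3.12 to 16.6 ± 5.02 CPM (log2 1.77, edgeR adjusted p = 0.0135). Zbtb16 went from 10.5 ± 4.59 to 39.0 ± 3.32 CPM (log2 1.89, adjusted p = 0.00107), and Tsc22d3 and Sgk1 rose by 0.75 and 0.92. In KO, 3 of 10 were called higher, against 6.64% of all genes: Fkbp5 (log2 1.61, adjusted p = 0.0404), Tsc22d3 (0.80, 0.0158) and Zbtb16 (2.02, 0.00167). In KO the call of Fkbp5 was lost with no filter (0.0877), with only the 8 libraries compared (0.0595) and without any of 6 single libraries (edgeR adjusted p 0.0779 to 0.126), and that of Tsc22d3 without RT replicate 10 (0.0626). In eWAT, Nampt was higher in KO at RT (102 ± 8.95 against 78.3 ± 3.43 CPM, log2 0.40, adjusted p = 0.0415, 1.2% of genes called higher), and Zbtb16 rose with TN in KO (40.4 ± 7.17 to 88.0 ± 31.0 CPM, log2 1.11, adjusted p = 0.0357, 1.02% of genes called higher). The call of Nampt in eWAT was lost with no filter (0.05) and without any of 7 single libraries (edgeR adjusted p 0.0571 to 0.0981). That of Zbtb16 was lost with no filter (0.0665), with only the 8 libraries compared (0.0762) and without any of 5 single libraries (0.0558 to 0.116). The medians of the 3 lists in WT BAT were -0.06, 0.03 and 0.67, beside 0.112 for all genes.

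Across tissues, 6 of the 10 genes were higher in liver than in both fat depots. Hlf fell in the order liver (78.3 ± 17.2 CPM, SD over 16 libraries), BAT (45.4 ± 16.8) and eWAT (9.80 ± 5.82), and Ciart likewise (18.5 ± 10.6, 4.66 ± 4.58 and 1.37 ± 1.83). Cry1 was 11.8 ± 5.00, 8.67 ± 1.85 and 5.12 ± 1.76 CPM, and Per3 was 90.9 ± 39.4, 61.7 ± 32.1 and 38.2 ± 21.1 CPM. For these 4 genes each step was called in a fit over all 48 libraries. The weakest was that of Per3 from liver to BAT (log2 0.58 ± 0.25, edgeR adjusted p = 0.0434), which was lost when any of 11 replicate numbers was left out (adjusted p 0.0541 to 0.128).

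The log2 differences of Hlf were 0.78 ± 0.18 for liver over BAT and 2.27 ± 0.19 for BAT over eWAT (edgeR adjusted p = 0.000174 and 1.13e-13). Ciart differed by 2.35 ± 0.45 and 1.53 ± 0.46. Per2 (64.7 ± 26.6 CPM in liver) and Dbp (166 ± 64.8 CPM) were higher in liver than in BAT by 1.53 ± 0.30 and 1.28 ± 0.35, but their 2 fat depots did not differ by call over all libraries. Per2 was called higher in BAT than in eWAT when replicate 3, 9, 10, 16 or 24 was left out (log2 0.65 to 0.92, edgeR adjusted p 0.00358 to 0.0448). The share of all genes called was 68.6% for liver against BAT (31.6% higher in liver), 73.8% for liver against eWAT (35.5% higher) and 60.3% for BAT against eWAT. The share of all genes higher in liver than in both depots, or called at each step, was not computed.

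Arntl, Npas2, Per1 and Nr1d1 were not called between any 2 tissues over all libraries. Per1 was 44.4 ± 14.7, 42.6 ± 22.1 and 41.7 ± 16.6 CPM in liver, BAT and eWAT, and Nr1d1 was 113 ± 64.4, 131 ± 31.9 and 126 ± 41.4 CPM. Arntl was 4.64 ± 4.03, 5.44 ± 5.59 and 8.48 ± 6.62 CPM, with a log2 difference of -1.0 ± 0.49 between liver and eWAT (edgeR adjusted p = 0.0625), which was called without replicate 3 or 5 (0.0457 and 0.0486). Without replicate 24, Nr1d1 was called lower in liver than in BAT (-0.45, edgeR adjusted p = 0.0207) and in eWAT (-0.38, 0.0427). Npas2 was called lower in liver than in eWAT without replicate 12 or 24 (0.0499 and 0.0263), and lower in BAT than in eWAT without replicate 12 (0.0402).

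The spread between libraries of one group was itself large for most of these genes. The SD of log2 level within groups was 0.90 for Arntl, 0.79 for Per2 and 1.15 for Ciart in liver, where the median of all tested genes was 0.37. In BAT it was 1.57 for Arntl and 1.37 for Dbp against a median of 0.35, and in eWAT 1.21 and 1.14 against 0.30. Arntl lay at percentiles 98.3, 98.8 and 98.4 of all tested genes in the 3 tissues. Cry1 (0.34) and Hlf (0.21) in liver lay below the median, and they were the 2 genes called there. BAT differed: Cry1 (0.27) and Nr1d1 (0.33) lay below its median and were not called over all libraries. Per1 (0.46) and Ciart (0.89) lay above it and were called.

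Libraries that were high in Arntl were low in Dbp. Over the 16 libraries of a tissue, Pearson's r between the log2 levels was -0.686 in liver, -0.880 in BAT and -0.899 in eWAT, and Spearman's rho was -0.650, -0.818 and -0.947 (permutation p of r = 0.00327, 1e-05 and 1e-05, the last being the smallest that 100000 resamples can give; adjusted over 18 correlations, 0.0049, 9e-05 and 9e-05). Without the 2 libraries farthest from the median of Arntl, r was -0.538, -0.836 and -0.888. With group means removed, r was -0.628, -0.887 and -0.924, which passed the threshold in BAT and eWAT (adjusted permutation p = 0.0009 in both) and not in liver (0.157).

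**Figure D4:**
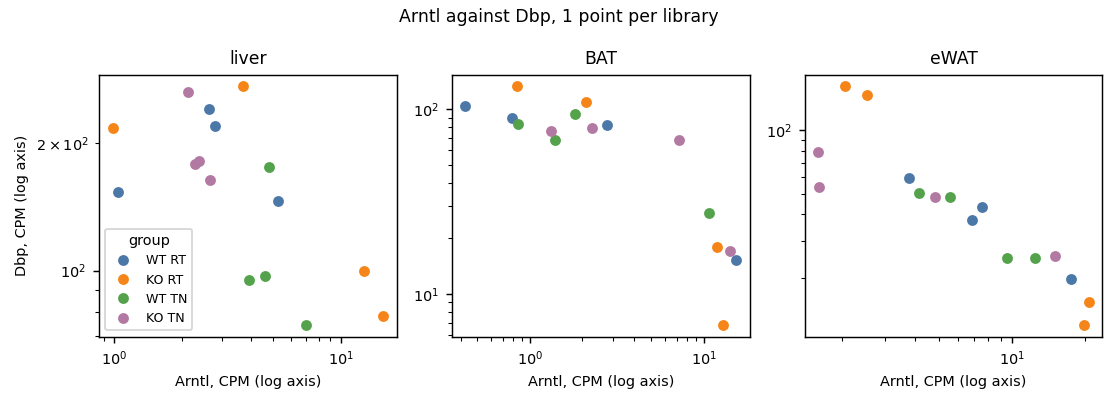
Arntl (horizontal) against Dbp (vertical) in TMM-scaled CPM on log axes, 1 panel per tissue and 1 point per library, coloured by genotype and housing. In all 3 panels the points run from high Dbp and low Arntl to low Dbp and high Arntl, with r of -0.686, -0.880 and -0.899.

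Pairs of genes from one arm of the loop did not all share a sign. Dbp and Per3 had r of 0.692, 0.785 and 0.855 in liver, BAT and eWAT (rho 0.632, 0.688 and 0.868; adjusted permutation p = 0.00401, 0.00116 and 0.00018), and 0.570, 0.772 and 0.763 without the 2 farthest libraries. Arntl and Npas2 had r of 0.750, 0.761 and 0.717 (rho 0.501, 0.735 and 0.629; adjusted permutation p = 0.00214, 0.0016 and 0.00313). With group means removed the liver value did not pass the threshold (r 0.769, adjusted permutation p = 0.0761). With group means kept, r without the 2 libraries farthest from the median was 0.363 in liver, so it rests on those libraries there. In the fat depots it was 0.785 and 0.781. With group means removed, r in liver was 0.615 without the 2 farthest libraries. Dbp and Ciart had r of 0.782, 0.509 and 0.830 (rho 0.768, 0.665 and 0.824), which did not pass in BAT (adjusted permutation p = 0.00078, 0.0513 and 0.00027), and 0.734, 0.569 and 0.707 without the 2 farthest libraries. Other pairs of one arm differed between tissues. With group means removed, r in liver, BAT and eWAT was -0.0462, 0.819 and 0.722 for Dbp and Hlf. It was -0.119, -0.538 and -0.0929 for Per2 and Cry1, and 0.0194, -0.632 and 0.00144 for Per1 and Cry1. Arntl and its repressor Nr1d1 had no common sign, with r of 0.309, 0.00432 and -0.553, of which only the last passed the threshold (adjusted permutation p = 0.0352). In all, 14 of the 18 correlations passed, and 14 with group means removed, but not the same ones. Arntl with Npas2 and with Dbp in liver no longer passed, while in BAT Dbp with Ciart and Arntl with Per1 did (adjusted permutation p = 0.00096 and 0.0476). Of the 45 pairs among the 10 genes, 31 had the same sign of r in all 3 tissues with group means removed, 14 positive and 17 negative.

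The same replicate numbers recurred across tissues. KO replicates 9 and 10 at RT had high Arntl and low Dbp in liver (Dbp 100 and 78.3 CPM), BAT (17.9 and 6.82 CPM) and eWAT (15.4 and 12.0 CPM). KO replicate 19 had low Arntl and high Dbp in all 3 (272, 133 and 146 CPM). WT replicate 12 at RT had the lowest Dbp and the highest Arntl of its group in all 3 tissues, with Dbp at 146, 15.3 and 19.8 CPM.

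Over the replicate numbers that a pair of tissues shares, the deviation of Dbp from its group mean had r of 0.541 between liver and BAT (13 numbers), 0.867 between liver and eWAT (11) and 0.844 between BAT and eWAT (11), with rho of 0.566, 0.891 and 0.718. After adjustment over 6 such correlations none passed the threshold (adjusted permutation p = 0.218, 0.118 and 0.118), permuting within groups. Without the 2 numbers farthest from the median, r was 0.703, 0.776 and 0.711. For Arntl r was 0.562, 0.776 and 0.709 (rho 0.396, 0.691 and 0.636; adjusted permutation p = 0.118 in each pair), and 0.412, 0.647 and 0.926 without the farthest 2.

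Split by housing, Dbp deviated in the same direction for 5 of 6, 6 of 7 and 6 of 6 RT numbers, and for 1 of 7, 0 of 4 and 4 of 5 TN numbers, in liver and BAT, liver and eWAT, and BAT and eWAT. WT replicate 24 at TN was the extreme case, with Dbp above its group mean by 0.75 (log2) in liver and at -1.16 in BAT. The labels do not say whether a number marks 1 animal across tissues, and whether the RT and TN relations differ was not tested.

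**Figure D5:**
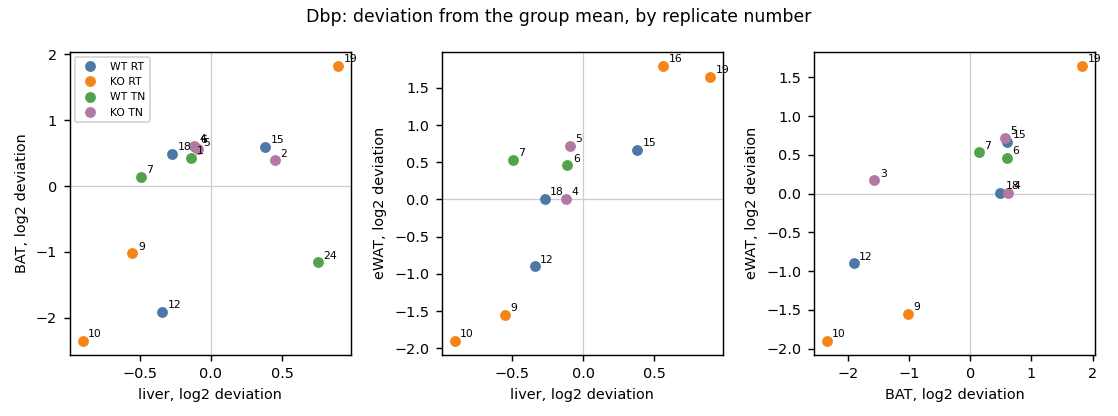
Deviation of log2 Dbp level from its group mean in one tissue against another, 1 panel per pair of tissues and 1 point per replicate number (printed beside it), coloured by genotype and housing. The RT points run from KO replicate 10 at the lower left (-0.90 in liver, -2.35 in BAT, -1.90 in eWAT) to KO replicate 19 at the upper right (0.89, 1.83 and 1.65), while WT replicate 24 at TN lies off that line in the first panel.

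Over 11033 genes whose mean reached 1 CPM in each tissue, those most like Dbp across libraries were mostly clock genes, as a mean of the 3 within-tissue r with group means removed. They were Tef, the third D-box factor of this family (0.931), Ciart (0.864), Per3 (0.860), Nr1d2, the close relative of Nr1d1 (0.830), and the E-box repressor Bhlhe41 (0.807). The lowest values belonged to Arntl (-0.813), Dtx4 (-0.810), Sh3pxd2a (-0.781), Clock (-0.761) and Leo1 (-0.749). Among those most like Arntl were Dtx4 (0.882), Leo1 (0.810), Sh3pxd2a (0.750) and Nfil3, a repressor at D-boxes (0.742), and least like it were Tef (-0.852), Slc5a6 (-0.813), Dbp (-0.813), Per3 (-0.790) and Per2 (-0.784). These values describe likeness over 16 libraries in each tissue and carry no test. Genes with symbols of the Gm or Rik type were left out of this ranking. So was Npas2, whose mean was 0.548 CPM in liver and 0.647 CPM in BAT. With group means removed, its r with Arntl was 0.769, 0.763 and 0.895 in liver, BAT and eWAT.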

How the data were processed

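The authors deposited raw counts per gene, 1 file per library. Reads were processed with fastp, STAR 2.6.1d and featureCounts 1.5.0-p3 against GRCm38/mm10, per the submitters' processing notes; the annotation release and the strand setting are not given in the sources used here. RNA came from frozen tissue, with NEBNext Ultra libraries read in pairs, per the labels' protocols. Symbols were found for 52073 of 56748 identifiers (91.8%).

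Groups were tissue, genotype and housing from the labels. Each tissue was fitted over its 16 libraries with edgeR 4.0.16 in R 4.3.3: filterByExpr with a minimum count of 10, TMM scaling, 1 mean per group, robust quasi-likelihood F tests, and Benjamini-Hochberg adjustment over all genes tested (17594 in liver, 18032 in BAT, 18933 in eWAT) at 0.05. Levels between tissues, and differences of effects between tissues, were fitted over all 48 libraries (21910 genes). Simulated counts with known changes, drawn around a common mean per gene, were passed through the fit to check the median size of its estimates. The check set no limit on false calls, and the counts did not copy the split groups seen for these genes. SEs are not given where the F statistic was near 0. P-values measure the spread between libraries labelled as biological replicates.

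Correlations used log2(CPM + 0.5), with two-sided permutation tests of 100000 resamples, within groups where group means were removed. The alternatives were scaling by RLE, testing without a low-count filter, at least 1 CPM in 4 libraries, DESeq2 1.42.0, only the 8 libraries compared, each library left out, a replicate block, and a pseudocount of 0.1 CPM. Named genes were the 10 members, Agt, called genes of the 3 lists, and the 5 genes most and least like Dbp or Arntl. One result under this rule is not reported here. Members and lists were chosen with earlier results of these data known.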

Additional observations from a re-analysis of the deposited data

Results flagged for a closer look

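In 8 of 120 groups of 4 libraries (10 genes in 12 groups), 1 library stood apart from the other 3, its gap to the nearest of them passing Dixon's 95% critical value for the group's range. For independent groups of normally distributed values, chance would flag about 1 in 20. The values here were CPM on a linear scale of genes that vary together, so that rate need not hold. In WT liver at TN, replicate 24 had 9.83 CPM of Cry1 where the others had 19.7 to 21.5, and 37.7 CPM of Ciart where the others had 9.16 to 11.2. The same number in WT BAT at TN had 10.7 CPM of Arntl, against 0.854 to 1.83. In WT at RT, replicate 12 had 15.4 CPM of Arntl in BAT (others 0.426 to 2.80) and 2.11 CPM of Npas2 in eWAT (others 0.365 to 0.540). Replicate 15 of that eWAT group had 63.6 CPM of Per1 (others 32.9 to 35.4). Dbp was 264 CPM in replicate 2 of KO liver at TN (others 164 to 181), and Hlf was 12.3 CPM in replicate 8 of WT eWAT at TN (others 6.07 to 6.69). These 8 values came from 7 libraries, and the numbers 24 (liver and BAT) and 12 (BAT and eWAT) each occurred in 2 tissues.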

How the results depend on the processing

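Settings other than leaving out libraries left the number of clock genes called equal or within 1.5 times in 82 of 86 cases. Most of these cases had 0 members called in both fits and counted as equal, so this share says little about the calls made. With no filter on low counts, 1 member was called for temperature in WT BAT and 0 in KO BAT. DESeq2 called 1 member for genotype at RT in eWAT (Hlf, 1.28) and 1 for the interaction in liver (Cry1, -1.52). Leaving out 1 library gave 1 to 2 members called for genotype at TN in liver, 1 to 2 for temperature in WT BAT, 0 to 1 in KO BAT and 0 to 1 for genotype at RT in eWAT. Leaving out 1 replicate number gave 0 to 1 for the difference between tissues of the temperature effect in WT. The cause of these changes was not tested. Counts over all genes moved more. DESeq2 called, with edgeR's count in brackets, in liver 208 (15) for genotype at RT, 1165 (560) at TN, 89 (4) and 380 (20) for temperature in WT and KO and 20 (0) for the interaction; in BAT 986 (16) and 19 (0) for genotype at RT and TN and 25 (0) for the interaction; and in eWAT 1560 (821), 713 (111), 104 (0), 1222 (330) and 10 (0) in the liver's order. With no filter the counts were 25, 10 and 77 in liver for genotype at RT and temperature in WT and KO, 47 in BAT for genotype at RT and 1 in eWAT for temperature in WT. For genotype at RT, at least 1 CPM in 4 libraries gave 9 in liver and 0 in BAT, and RLE 0 in BAT. With only the 8 libraries compared, temperature gave 8 and 13 in liver, genotype at RT 0 in BAT, and genotype at TN and temperature in KO 0 in eWAT. Leaving out 1 library gave, for genotype at RT and TN and temperature in WT and KO, 4 to 19, 178 to 497, 2 to 23 and 0 to 153 in liver; 0 to 1979, 0, 4468 to 6685 and 1920 to 2614 in BAT; and 287 to 830, 1 to 238, 0 to 13 and 0 to 642 in eWAT. The interaction gave 0 in liver, 0 to 21 in BAT and 0 to 4 in eWAT.

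Same-numbered libraries of different tissues did not deviate together over all genes. Their correlation exceeded 0.1 in 1 of 35 pairs (-0.328 to 0.156). Over the clock genes alone it was positive in 27 of 35 (median 0.317, -0.626 to 0.956), and it was at least 0.682 in every KO pair at RT. Different tissues of 1 animal need not deviate together, so these values cannot tell whether a number marks 1 animal. The main fit over all 48 libraries treated the libraries as independent, with the replicate block as an alternative. With the replicate block, 6 members were called for liver against BAT, 7 for liver against eWAT and 5 for BAT against eWAT, the added calls being Npas2 (-1.93 and -1.81). Signs that turned were those of uncalled differences: with the block Arntl for liver minus BAT (0.15), Per1 for liver minus eWAT (-0.03) and Nr1d1 for BAT minus eWAT (-0.11), and without single numbers Arntl for liver minus BAT (-0.48 to 0.01) and Per1 for BAT minus eWAT (-0.12 to 0.08). With group means removed, r of Arntl and Nr1d1 in BAT was -0.0794. Depth most limits Npas2, with 0 counts in 7 liver and BAT libraries, and Ciart, with as few as 1 count in an eWAT library.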
